A study of Mus musculus with 9 samples.

Results

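The 7 enzymes of cholesterol synthesis followed here through the mammary cycle were Hmgcs1, Idi1, Fdps, Fdft1, Sqle, Cyp51 and Nsdhl. Their probe sets were taken by symbol or synonym from the annotation of the array, which gave 12 probe sets for the 7 genes among 12422 probe sets. Of the 12422, 10833 carried 1 symbol, and these stood for 8251 genes. None of the 12 carried a second symbol. Of the 12, 11 had a mean signal above 20 in at least 1 stage and were tested, and every gene kept at least 1. Where a gene had several probe sets, its brightest one stands for it unless another is named.

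The samples were whole inguinal (No4) mammary glands of wild type C57BL/6J female mice, with no transgene or drug named for any group, and each was read on 1 Affymetrix MG-U74Av2 array. Glands came from virgin mice at puberty, 6 weeks old (n = 3), from mice at day 14 of pregnancy (n = 2), from mice at day 10 of lactation (n = 2) and from mice at day 4 of involution, counted from the weaning of the pups (n = 2). The ages of the mice in the other 3 stages were not given in the sources used here. The glands of a stage are biological replicates from different mice, 1 mouse per array by the study's methods. A whole gland holds epithelium, fat, vessels and immune cells together. A lower signal in such tissue can mean fewer cells of a type or less RNA per cell, and the arrays cannot tell these apart.

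Cells make cholesterol from acetyl-CoA. Hmgcs1 forms HMG-CoA, from which mevalonate is made, and the next enzymes turn mevalonate into isoprene units, join these to squalene, close squalene to lanosterol and trim lanosterol to cholesterol. The genes of this pathway are best known as targets of the SREBP transcription factors, which bind sterol regulatory elements when sterols run low and act together with NF-Y and Sp1. In the lactating gland the secretory epithelium makes milk fat, and cholesterol is carried into milk in the membrane around the fat globules.

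The promoter windows of the members are shown because these 3 kinds of sites lie in such windows. RefSeq's start sites on build GRCm38.p6 gave a window, from 250 bases before to 50 after the start, for 4 of the 7 genes: Hmgcs1 (chr13:119690101-119690400, plus strand), Idi1 (chr13:8885356-8885655, plus strand), Cyp51 (chr5:4104648-4104947, minus strand) and Nsdhl (chrX:72918271-72918570, plus strand). Fdps, Fdft1 and Sqle had no entry. Capitals mark exact matches, on either strand, to TCACNCCAC (a sterol regulatory element), CCAAT (the NF-Y box, ATTGG on the other strand) and GGGCGG (an Sp1 box, CCGCCC on the other strand).
Hmgcs1: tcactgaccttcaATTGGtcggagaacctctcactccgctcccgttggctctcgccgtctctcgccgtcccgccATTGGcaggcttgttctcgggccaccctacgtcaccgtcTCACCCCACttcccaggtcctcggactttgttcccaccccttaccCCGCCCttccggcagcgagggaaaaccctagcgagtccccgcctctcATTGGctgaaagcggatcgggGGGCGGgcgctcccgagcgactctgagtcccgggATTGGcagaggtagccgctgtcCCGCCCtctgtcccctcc
Idi1: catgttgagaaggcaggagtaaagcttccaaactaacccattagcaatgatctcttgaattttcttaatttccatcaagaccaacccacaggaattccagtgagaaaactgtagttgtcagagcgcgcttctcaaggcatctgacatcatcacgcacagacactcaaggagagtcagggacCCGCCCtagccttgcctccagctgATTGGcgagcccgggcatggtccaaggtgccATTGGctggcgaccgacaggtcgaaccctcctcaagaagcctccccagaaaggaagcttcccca
Cyp51: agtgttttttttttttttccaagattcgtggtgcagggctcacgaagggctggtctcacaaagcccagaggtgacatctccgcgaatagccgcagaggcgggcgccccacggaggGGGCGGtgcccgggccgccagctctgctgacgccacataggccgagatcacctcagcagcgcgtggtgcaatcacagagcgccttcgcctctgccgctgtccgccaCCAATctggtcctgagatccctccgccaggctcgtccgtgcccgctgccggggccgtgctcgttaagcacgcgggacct
Nsdhl: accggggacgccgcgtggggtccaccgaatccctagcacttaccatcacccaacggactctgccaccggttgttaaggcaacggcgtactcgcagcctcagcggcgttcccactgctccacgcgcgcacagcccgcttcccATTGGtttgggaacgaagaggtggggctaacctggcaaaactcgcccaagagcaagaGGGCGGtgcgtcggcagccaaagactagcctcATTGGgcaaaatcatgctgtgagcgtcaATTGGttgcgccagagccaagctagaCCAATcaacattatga

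The Hmgcs1 window held 1 sterol regulatory element, 137 bases before the start, 4 NF-Y boxes and 3 Sp1 boxes. The Idi1 window held 2 NF-Y boxes and 1 Sp1 box, the Cyp51 window 1 of each, and the Nsdhl window 4 NF-Y boxes and 1 Sp1 box. All 4 windows thus held both boxes, and TCACNCCAC was found in the Hmgcs1 window alone of these 4. Among all 32851 windows of the same length, 1.24% held TCACNCCAC, 37.4% held CCAAT and 35.7% held GGGCGG. No match says only that these letters are not in the window.

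In these glands 5 of the 7 genes were higher at lactation than at pregnancy and fell again by day 4 of involution. These were Idi1, Fdps, Sqle, Cyp51 and Nsdhl, with rises of 2.26-fold (Nsdhl) to 5.48-fold (Fdps), while Hmgcs1, the first enzyme of the group, and Fdft1 were not called in any contrast between stages. For Nsdhl this holds for the brightest probe set. Another, 93868_at, did not rise at lactation and was called higher at involution than at lactation (1.62, limma adjusted p = 0.0102). Over the 4 stages, 5 of 7 genes passed limma's moderated F test, beside 51.6% of all probe sets tested. From pregnancy to lactation 5 of 7 were called higher and 0 lower, where 21.6% of all probe sets were called higher and 19.7% lower. The median change of the 7 genes was 1.31 on the log2 scale, and that of all probe sets tested was 0.07. From lactation to involution 5 of 7 were called lower and 0 higher, where 23.0% and 22.1% of all probe sets were, and the median of the 7 was -1.30 against -0.03 for all probe sets. These counts rest in part on single arrays: the F test passed 3 genes without lactation replicate 2, the rise was called for 3 without pregnancy replicate 2, and the fall for 3 without lactation replicate 2, without involution replicate 2, with a floor of 50 or with no filter. A call means an adjusted p under 0.05, by Benjamini-Hochberg over all 9783 probe sets tested.

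**Figure D1:**
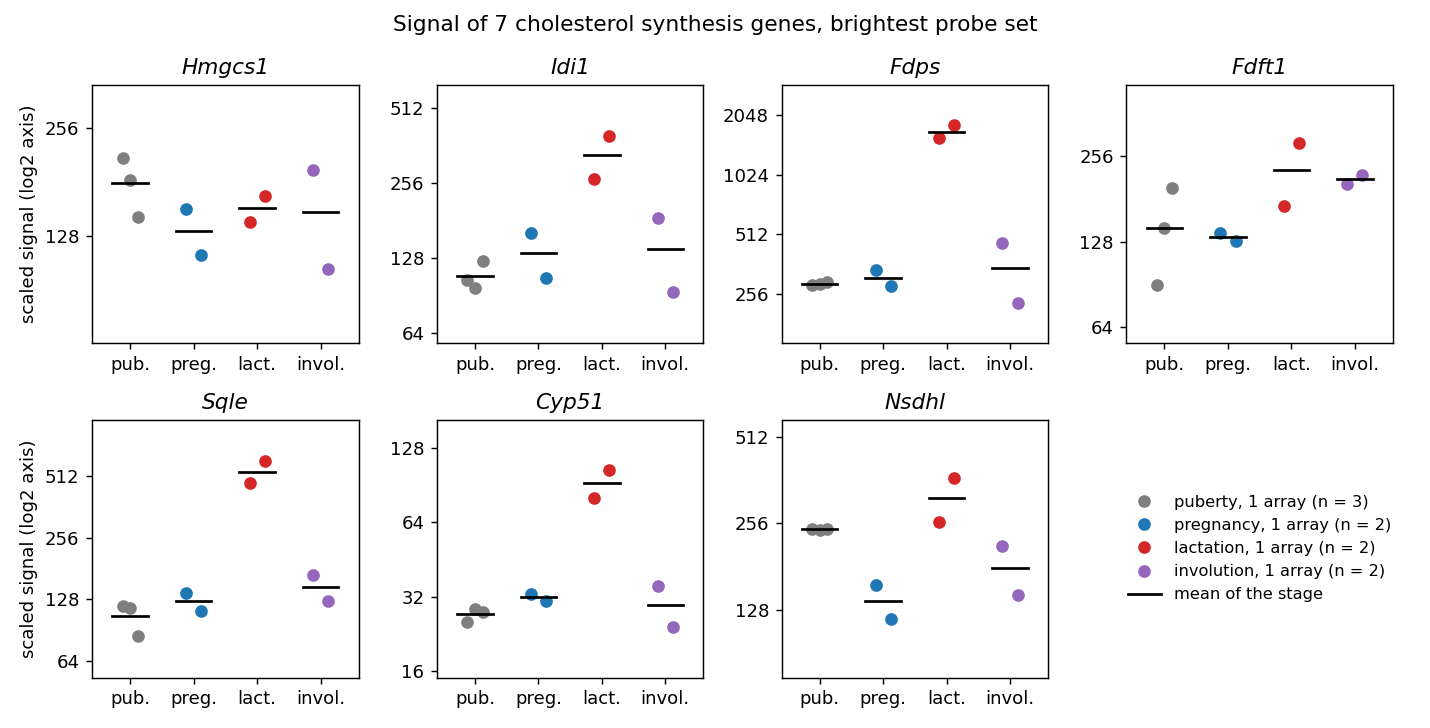
Each panel shows the scaled signal of 1 gene (brightest probe set, log2 axis) in the 4 stages, with 1 point per array and a black line at the mean of the stage. The arrays of lactation stand above all others for Idi1, Fdps, Sqle, Cyp51 and Nsdhl, and within the range of the others for Hmgcs1; for Fdft1 lactation replicate 2 is the highest array and lactation replicate 1 is not.

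The signals are linear intensities, scaled to the same median on all arrays, and they rank arrays for 1 probe set but not probe sets against each other. Hmgcs1, the cytosolic HMG-CoA synthase, gave 211, 184 and 145 at puberty, 152 and 114 at pregnancy, 140.5 and 166 at lactation and 196 and 104 at involution. The 4 stages overlapped, and the 2 involution arrays alone spanned nearly the whole range. Lactation exceeded pregnancy by 0.22 on the log2 scale (standard error 0.318, 95% interval -0.51 to 0.94, limma adjusted p = 0.618), an interval that holds no change as well as a rise of nearly 1 unit. The F test over the stages gave an adjusted p of 0.552. Without involution replicate 2 the change from lactation to involution, -0.10 with all arrays, was 0.36, and without lactation replicate 2 it was 0.02, both not called.

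Idi1, which interconverts the 2 isoprene units that the later enzymes join, gave 104, 97.2 and 125 at puberty, 162 and 107 at pregnancy, 268 and 398 at lactation and 187 and 93.9 at involution. Both lactation arrays lay above the other 7, and puberty, pregnancy and involution overlapped. The rise from pregnancy to lactation was 1.31 (standard error 0.355, limma adjusted p = 0.0175), or 2.48-fold, and the fall to involution was -1.30 (adjusted p = 0.0167). Against puberty the lactation level was higher by 1.59 (adjusted p = 0.00374). These calls depended on single arrays. The rise was lost without lactation replicate 1 (adjusted p = 0.0551), lactation replicate 2 (0.152) or pregnancy replicate 2 (0.136). The fall was lost without lactation replicate 1 (0.0524), lactation replicate 2 (0.149) or involution replicate 2 (0.11), and the difference from puberty without lactation replicate 2 (0.0699). With a floor of 50, or with no filter on dim probe sets, the rise had adjusted p-values of 0.0567 and 0.0589 and the fall of 0.0536 and 0.056.

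Fdps, farnesyl diphosphate synthase, makes the farnesyl unit at which the sterol branch parts from protein prenylation, ubiquinone and dolichol. Its brightest probe set (99098_at) gave 282, 287 and 292 at puberty, 337 and 279 at pregnancy, 1559 and 1816 at lactation and 460.3 and 231 at involution. Lactation stood far above the other 7 arrays, whose highest was involution replicate 1. The rise from pregnancy was 2.46 (standard error 0.278, limma adjusted p = 0.000302), or 5.48-fold, the largest among the 7 genes, and the fall to involution was -2.37 (adjusted p = 0.000267).

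The other probe sets of Fdps gave the same direction. Probe set 160424_f_at, whose suffix in Affymetrix naming marks probes shared within a family of sequences, gave 149 to 268 on the 7 arrays outside lactation and 773 and 973 at lactation, a rise of 2.08 (limma adjusted p = 0.000411). The dimmer 162281_at gave 17.1 to 39.6 outside lactation and 80.7 and 55.4 at lactation, a rise of 1.40 (adjusted p = 0.0107). Here lactation replicate 1 was the higher array, while replicate 2 was higher on the other 2 tested probe sets. The fourth, 162217_r_at, read 0.286 to 18.3 over the 9 arrays, below the signal of 20 needed for a test, with its highest reading in lactation replicate 2.

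Fdft1, squalene synthase, commits farnesyl units to sterols. It gave 90.1, 143 and 197 at puberty, 137 and 129 at pregnancy, 171 and 284 at lactation and 204 and 219.5 at involution. The highest array was lactation replicate 2, but lactation replicate 1 lay below both involution arrays and 1 puberty array. The change from pregnancy to lactation was 0.73 (standard error 0.356, 95% interval -0.08 to 1.54, limma adjusted p = 0.134), so a rise of the size seen for Idi1 lies within its interval. From lactation to involution it was -0.06 (95% interval -0.87 to 0.75), and 0.31 without lactation replicate 2. With robust fitting the difference of lactation from pregnancy passed (adjusted p = 0.003), and without puberty replicate 3 so did that from puberty (0.96, adjusted p = 0.0343).

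Sqle, squalene epoxidase, adds the oxygen that lanosterol synthase needs and is a second control point of the pathway. It gave 118, 116 and 84.6 at puberty, 138 and 112 at pregnancy, 472 and 605 at lactation and 169 and 125 at involution. The lactation arrays were clear of all others, puberty overlapped pregnancy, and pregnancy overlapped involution. The rise from pregnancy was 2.11 (standard error 0.245, limma adjusted p = 0.00034), or 4.31-fold, and the fall to involution was -1.88 (adjusted p = 0.000447). Over the stages Sqle had the smallest F test p of the 7 genes (adjusted p = 0.000283).

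Cyp51, the lanosterol demethylase, takes the first step after lanosterol. It was dim outside lactation, with 25.3, 28.5 and 27.7 at puberty, 32.9 and 30.6 at pregnancy and 35.3 and 24.0 at involution, and gave 80.0 and 104 at lactation. Again both lactation arrays stood above the other 7, while pregnancy lay just above puberty and involution spanned both. The rise from pregnancy was 1.52 (standard error 0.25, limma adjusted p = 0.00175), or 2.88-fold, and the fall to involution was -1.65 (adjusted p = 0.000982). Its signals outside lactation were close to the floor of 20. With a floor of 50 the rise shrank to 0.87 and was still called. Fdps, Sqle and Cyp51 kept their calls from pregnancy to lactation, from puberty to lactation and from lactation to involution without any 1 of the 9 arrays.

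Nsdhl, a dehydrogenase that helps remove the methyl groups of lanosterol, had a different course. Its brightest probe set (98631_g_at) gave 245, 243 and 245 at puberty, 156 and 119 at pregnancy, 259 and 367 at lactation and 214 and 145 at involution. The pregnancy arrays lay below puberty and lactation, and lactation replicate 1 lay little above puberty. The fall from puberty to pregnancy was -0.84 (standard error 0.222, limma adjusted p = 0.0438), the only change of the 7 genes called between these stages, where 6.2% of all probe sets were called higher and 5.22% lower. The rise to lactation was 1.18 (standard error 0.243, adjusted p = 0.00525), or 2.26-fold, the fall to involution was -0.81 (adjusted p = 0.0249), and lactation against puberty was 0.34 (95% interval -0.17 to 0.84), not called.

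The calls of Nsdhl depended on single arrays as well. The fall at pregnancy was lost when any 1 of the 7 arrays outside involution was left out, with adjusted p-values of 0.0688 (without lactation replicate 1) to 0.304 (without pregnancy replicate 2). The rise to lactation was lost without pregnancy replicate 2 (0.0503), and the fall to involution without involution replicate 2 (0.148) or lactation replicate 2 (0.163). With a floor of 50 the fall at pregnancy had an adjusted p of 0.0927 and the fall to involution one of 0.0575.

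The 3 probe sets of Nsdhl did not move alike. Probe set 98630_at gave 132, 138 and 158 at puberty, 100.5 and 93.8 at pregnancy, 161 and 165 at lactation and 153 and 87.8 at involution, and its rise to lactation of 0.74 was called (limma adjusted p = 0.0466) while its fall to involution of -0.49 was not (0.157). Probe set 93868_at gave 116, 123 and 109.7 at puberty, 66.2 and 56.0 at pregnancy, 32.9 and 61.5 at lactation and 201 and 94.7 at involution. From pregnancy to lactation it changed by -0.44, not called (adjusted p = 0.405), where the other probe sets rose. It was lower at lactation than at puberty (-1.37, adjusted p = 0.013) and higher at involution than at lactation (1.62, adjusted p = 0.0102), opposite to the brightest probe set in the last contrast. Which transcripts each of these probe sets reads was not tested, so the direction of Nsdhl at lactation and at involution rests on the probe set chosen.

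**Figure D2:**
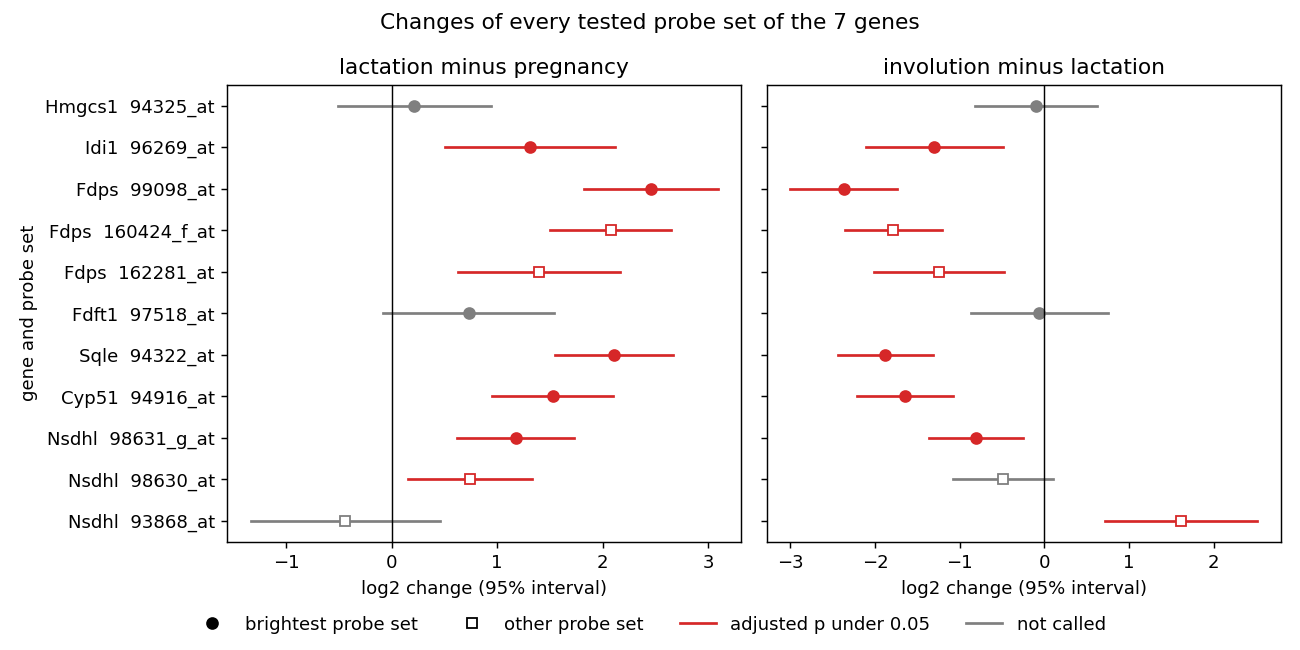
Log2 change of each of the 11 tested probe sets from pregnancy to lactation (left) and from lactation to involution (right), with 95% intervals; filled circles are the brightest probe sets, open squares the others, and red marks an adjusted p under 0.05. In all, 8 probe sets rose at lactation and 7 fell at involution, and the third probe set of Nsdhl rose at involution.

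By probe set, 8 of 11 were called higher at lactation than at pregnancy and 0 lower, beside 21.6% and 19.7% of all probe sets. From lactation to involution 7 were called lower and 1 higher, beside 23.0% and 22.1%. Against puberty 6 of 11 probe sets were called higher at lactation and 1 lower, beside 26.1% and 21.8%. By gene, 4 of the 7 were higher at lactation than at puberty (Idi1, Fdps, Sqle and Cyp51) and 0 lower. These contrasts share arrays, so their counts are not separate pieces of evidence.

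Involution was not called different from pregnancy or puberty for any of the 7 genes. In limma, 0 of 7 passed against pregnancy, where 7.12% of all probe sets did, and 0 of 7 against puberty, where 7.48% did, and in both contrasts 0 of 7 had an unadjusted p under 0.05. The changes of the 7 genes ran from -0.12 (Cyp51) to 0.67 (Fdft1) against pregnancy and from -0.47 (Nsdhl) to 0.64 (Fdft1) against puberty. With 2 glands per stage the intervals were wide: for Idi1 the difference of involution from pregnancy was 0.01 with a 95% interval of -0.80 to 0.82. With robust fitting 1 of 7 was called in each of these contrasts, and relative to the luminal markers described below 2 and 1 were. Of all 9783 probe sets tested, robust fitting called 2242 against pregnancy and 2299 against puberty. Relative to the luminal markers 2303 and 1301 were called.

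Replicates of a stage also ordered alike across the genes. Both lactation arrays exceeded all 7 others for 5 of the 7 genes, as for 27.9% of all probe sets tested. Lactation replicate 2 was above replicate 1 for 7 of 7 genes (50.2% of all probe sets), pregnancy replicate 1 above replicate 2 for 7 of 7 (55.2%), and involution replicate 1 above replicate 2 for 6 of 7 (47.0%), Fdft1 being the exception. The dimmer probe sets of Nsdhl kept these orders, and those of Fdps did so in part. Fdps 162281_at gave 80.7 and 55.4 at lactation and 19.7 and 39.6 at involution, and 160424_f_at gave 201 and 210 at pregnancy. As the mean over the 7 genes of the log2 value centred per gene, the 2 lactation arrays stood at 0.78 and 1.21, the 2 involution arrays at 0.14 and -0.48, and the pregnancy arrays at -0.21 and -0.52. The 3 puberty arrays lay together, at -0.35 to -0.27. The genes thus shared differences between glands of 1 stage as well as between stages, and no label gives a cause for the former.

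As a description over the 9 arrays, with no test, the log2 values of Fdps, Cyp51, Idi1 and Sqle followed the mean of the other 6 genes closely (Pearson r of 0.969, 0.96, 0.95 and 0.932), Nsdhl less so (0.678), Fdft1 less again (0.488) and Hmgcs1 least (0.151). The points share arrays and fall into stages, so lactation against the rest carries most of such an r.

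The other enzymes of the pathway were taken as a list of 15 genes, of which 11 were measured, and the rest, Acat2 and Pmvk among them, were not analysed here. In all, 5 of the 11 passed the F test, against 51.6% of all probe sets tested. From pregnancy to lactation 5 were called higher (Mvd, Msmo1, Hsd17b7, Ebp and Dhcr7), 1 lower (Lbr) and 5 were not called, with a median change of 0.60. Of all probe sets, 21.6% were called higher and 19.7% lower there. From lactation to involution 6 were called lower (Mvk, Mvd, Tm7sf2, Msmo1, Hsd17b7 and Ebp) and 1 higher (Lbr), with a median of -0.81, where 23.0% of all probe sets were called lower and 22.1% higher.

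Among those that act before squalene, Mvk, mevalonate kinase, was not called at lactation (0.26, limma adjusted p = 0.476), while Mvd, which makes the first isoprene unit, gave 75.7 and 53.4 at pregnancy, 197 and 238 at lactation and 52.4 and 42.8 at involution. Relative to luminal markers Mvk was called higher at lactation (adjusted p = 0.00494). The rise of Mvd was 1.77 (adjusted p = 0.00596). It was no longer called without lactation replicate 2 (0.0574) or pregnancy replicate 2 (0.0559). The fall of Mvk at involution (-0.82, adjusted p = 0.0362) was lost when 1 of 6 of the arrays was left out, up to an adjusted p of 0.22 without lactation replicate 1, and with a floor of 50 (0.0768), no filter (0.0772) or robust fitting (0.0552).

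Of those that act on lanosterol and later sterols, Hsd17b7, a sterol ketone reductase, showed the sharpest contrast. Its signal was 2.60 to 9.14 on the 7 arrays outside lactation, under the floor of 20, and 106 and 175 at lactation. Counting signals under 20 as 20, lactation exceeded pregnancy at least 6.80-fold (limma adjusted p = 8.55e-05). With robust fitting this call and that of the fall at involution were lost (adjusted p = 1.0 for both). Msmo1, the methyl sterol monooxygenase that acts just before Nsdhl, gave 26.2 and 35.8 at pregnancy, 110 and 129 at lactation and 77.5 and 59.6 at involution, a rise of 1.96 (adjusted p = 0.000658). Both lactation arrays of Msmo1 exceeded all others, and involution lay between lactation and pregnancy. Its fall at involution (-0.81, adjusted p = 0.0337) was lost without lactation replicate 1 (0.0509), lactation replicate 2 (0.0999), involution replicate 2 (0.134) or puberty replicate 1 (0.0505), with the replicate block (0.0656) and relative to luminal markers (0.0565).

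Ebp, the sterol isomerase, rose by 0.91 (limma adjusted p = 0.00446), from 102 and 101 to 195 and 187. Dhcr7, the last reductase of one branch, rose by 1.03 (adjusted p = 0.0411), a call that was lost when any 1 of the lactation, pregnancy or puberty arrays was left out, up to an adjusted p of 0.231 without lactation replicate 1. The call of Dhcr7 was also lost on the deposited scale (0.0559), with no filter (0.0975) and with no floor (0.0752), and with a floor of 50 its change was 0.16 (0.273). Lss, lanosterol synthase, changed by 0.60 (0.0733), Sc5d, the sterol desaturase, by 0.30 (0.477), and Erg28, a scaffold for the demethylating enzymes, by -0.16 (0.559; 0.85 relative to luminal markers), none of them called. Lss was called with no trend (0.0352) and with robust fitting (0.0196). Relative to luminal markers Lss and Sc5d were called higher (0.00209 and 0.0119), as were 5769 of all 9783 probe sets.

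Tm7sf2 and Lbr encode sterol reductases of the same step. Tm7sf2 changed by 0.32 at lactation on its brightest probe set, not called (limma adjusted p = 0.171), and by 1.51 on its other one, called (0.00797), with 44.2 and 38.2 at pregnancy and 120.2 and 113 at lactation. The brightest was called with no filter (0.0498), with robust fitting (0.00746) and relative to luminal markers (0.00435). Its fall at involution was -0.61 (0.0209), and relative to luminal markers -0.91, not called (0.085). Lbr, which is also a receptor of the nuclear lamina, was the 1 enzyme of the list to fall, from 252 and 186 to 62.5 and 87.6 (-1.55, adjusted p = 0.00256), and gave 221 and 138 at involution. Its return of 1.24 at involution (0.00652) was lost without involution replicate 1 (0.052) or lactation replicate 1 (0.0697). Relative to luminal markers its fall was -0.54 (0.234) and its return 0.94 (0.0583), neither of them called.

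**Figure D3:**
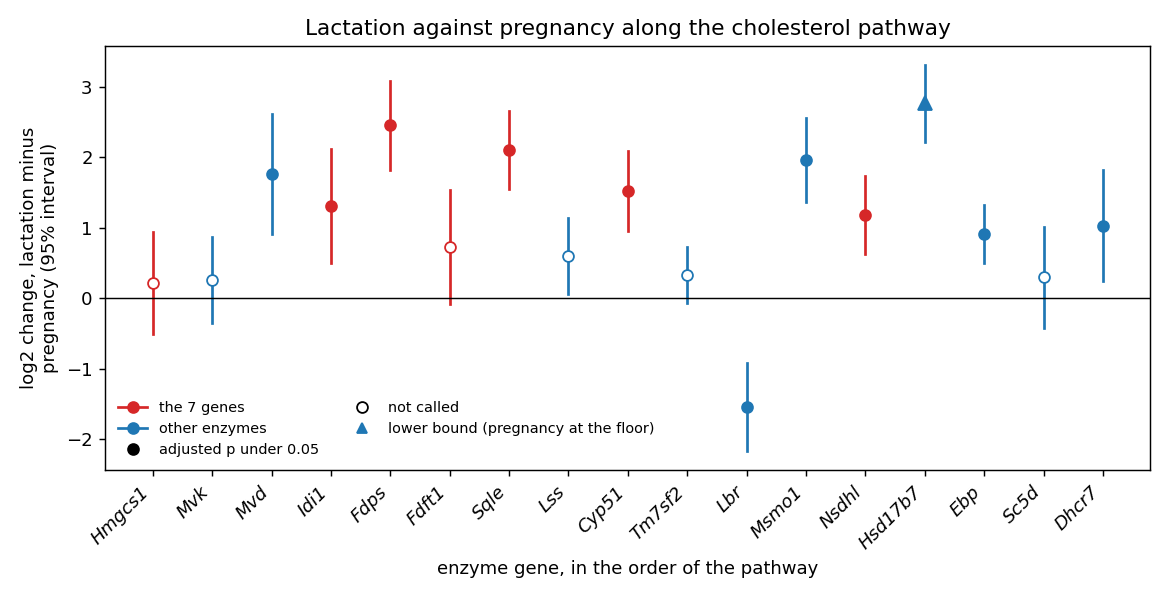
Log2 change from pregnancy to lactation with 95% intervals for 17 measured enzyme genes in the order of the pathway, red for the 7 genes and blue for the others, filled where the adjusted p was under 0.05; the triangle of Hsd17b7 is a lower bound. In all, 10 genes rose, Lbr alone was called lower, and Hmgcs1, Mvk, Fdft1, Lss, Tm7sf2 and Sc5d were not called.

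Of 7 genes that draw on farnesyl units for other products, 3 were measured. Fnta, the alpha subunit shared by the farnesyl and geranylgeranyl transferases, fell from 277 and 383 at pregnancy to 155 and 132 at lactation (-1.18, limma adjusted p = 0.0038) and rose again at involution (1.16, adjusted p = 0.00361). Relative to luminal markers these changes were -0.17 (0.699) and 0.86 (0.0659), and both calls were lost. Ggps1, which makes the geranylgeranyl unit, was not called on its brightest probe set (0.68, adjusted p = 0.196) and was called higher on its dimmer one (0.81, 0.0168). Fntb was under 20 on both lactation and both involution arrays.

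Of 12 genes that control the pathway, 3 were tested, and Srebf2, the SREBP gene best known for the sterol pathway, Scap, Insig2 and Mylip were not analysed here. Srebf1, which encodes the SREBP form better known for fatty acid synthesis, gave 1154 and 1303 at pregnancy, 1197 and 866 at lactation and 1380.1 and 1561 at involution. The arrays of pregnancy and lactation overlapped, and the change was -0.27 (limma adjusted p = 0.328), or 0.74 relative to the luminal markers described below. Insig1, which holds SREBPs back when sterols are high, read 0.717 to 7.49 on the 9 arrays and was not tested. Nr1h3, the sterol-sensing nuclear receptor LXR alpha, gave 172 and 139 at pregnancy, 53.6 and 64.9 at lactation and 195 and 249 at involution. Its fall was -1.39 (adjusted p = 0.000797) and its later rise 1.90 (adjusted p = 0.000126). Relative to luminal markers the fall of Nr1h3 was -0.38 and was not called (0.406).

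Of 17 listed genes of cholesterol uptake, storage and efflux, 11 were measured. From pregnancy to lactation 3 were called higher (Lipa, Npc2 and Scarb1), 4 lower (Abca1, Lrp1, Apoe and Stard3) and 4 were not called, beside 21.6% higher and 19.7% lower among all probe sets. Stard3 changed by -0.48 (limma adjusted p = 0.0407) but did not pass the F test (adjusted p = 0.104). Its dimmer probe set gave 33.9 and 34.7 at pregnancy and 31.7 and 55.8 at lactation, which overlap. From lactation to involution 4 were called higher (Abca1, Lrp1, Apoe and Abcg1) and 3 lower (Lipa, Scarb1 and Npc2), beside 22.1% and 23.0%. The last call of Npc2 was lost without lactation replicate 1 (limma adjusted p = 0.0741) or involution replicate 1 (0.0778), and that of Abcg1 without involution replicate 2 (0.164), either lactation array (0.172 and 0.0783) or either pregnancy array (0.0519 and 0.0533). With quantile normalization the fall of Npc2 was -0.23 (0.174), and relative to luminal markers it was -0.89 (0.0588) and the rise of Abcg1 0.55 (0.262). The call of Abcg1 was also lost with a floor of 50 (0.0662) or no filter (0.0691).

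Lipa, the lysosomal acid lipase that frees cholesterol from its esters, rose from 199.9 and 202 to 782 and 917 (2.08, limma adjusted p = 0.00225). Npc2, which hands free cholesterol on inside the lysosome, rose by 1.32 (adjusted p = 0.000384), and its partner Npc1 changed by 0.09, not called (0.774). Scarb1, the HDL receptor, rose by 0.80 (0.0168), from 628 and 649 to 1001 and 1233, a call lost without any 1 of the pregnancy and lactation arrays (0.0515 to 0.126). With quantile normalization the rise of Scarb1 was 0.53 (0.0572).

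Abca1, the main exporter of cellular cholesterol to apolipoproteins, gave 221 and 275 at pregnancy, 25.3 and 54.5 at lactation and 432 and 275 at involution. It fell by 2.73 at lactation (limma adjusted p = 0.000529) and rose by 3.21 at involution (adjusted p = 0.000181). Its second probe set changed by -1.43 at lactation (0.164) and by 1.14 at involution (0.252), and neither was called. Lrp1, a large endocytic receptor, fell by 1.83 (adjusted p = 0.000129) and Apoe, its ligand on lipoproteins, fell by 0.91 (0.00278). Relative to luminal markers the change of Apoe was 0.10.

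**Figure D4:**
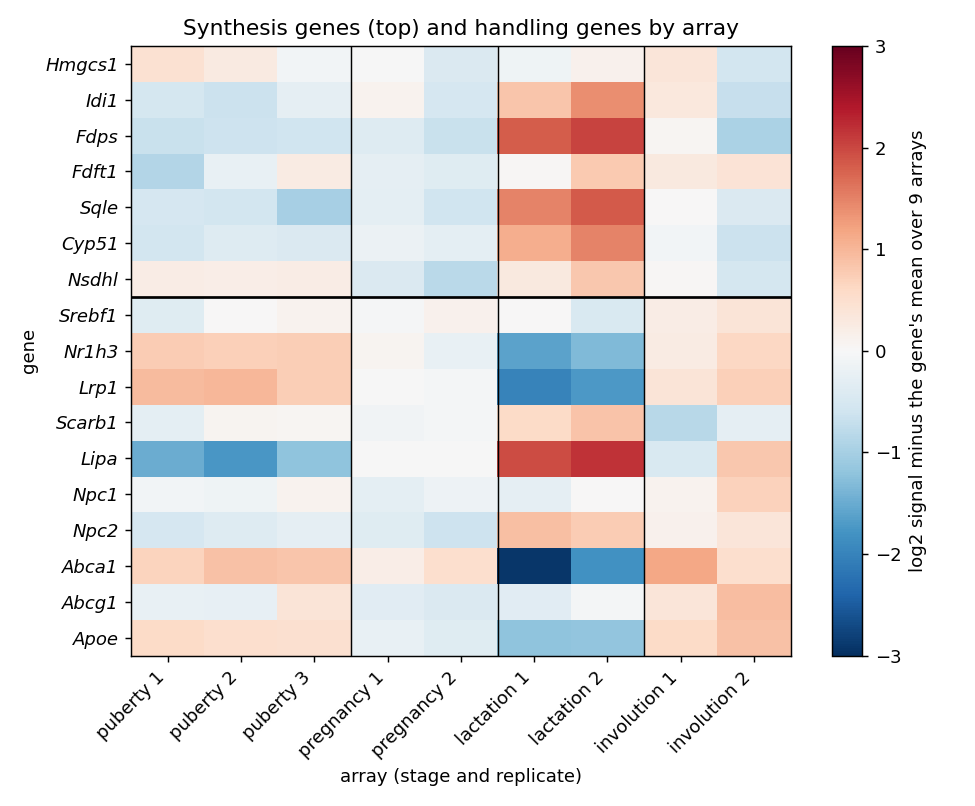
Deviation of the log2 signal from each gene's average (colour scale in log2 units, red above and blue below the mean) for the 7 synthesis genes above the black line and 10 genes of regulation, uptake and efflux below it, with 1 column per array. At lactation the colours of Fdps, Sqle, Cyp51, Lipa and Npc2 are red and those of Nr1h3, Lrp1, Abca1 and Apoe blue.

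The make-up of the gland moved with the stages too. The summed signal of 5 milk protein genes was 437 to 1947 at puberty, 21136 to 22780.0 at pregnancy, 99957 to 128629 at lactation and 17616 to 20957 at involution. That of 6 white adipocyte genes was 10048 to 13429 at puberty, 6025 to 8925 at pregnancy, 1936 to 2389 at lactation and 10859 to 12917 at involution, and that of 7 macrophage genes was lowest at lactation (2170 to 3249) and highest at involution (6990 to 9045). By these sums, lactation was the stage with the most milk protein signal and the least fat cell and macrophage signal. The sum of 5 fibroblast genes was also lowest there (3466 to 4129, against 7648 to 15204 in the other stages). From pregnancy to lactation 5 of the 6 fat cell genes and 5 of the 7 macrophage genes were called lower, beside 19.7% of all probe sets. Lep overlapped between these stages, and Cd14 gave 720 and 719 at pregnancy and 888 and 1596 at lactation. Skeletal muscle genes reached 9592 to 23987 at puberty and at most 1284 elsewhere. No tested marker of these lists was at or under 20 on all arrays, and the part of these lists in the changes of the 7 genes was not tested.

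From pregnancy to lactation, luminal epithelial markers did not rise as the synthesis genes did. Of 8 measured, 0 were called higher than at pregnancy and 5 lower (Krt8, Krt18, Krt19, Cldn3 and Cldn4), with a median of -1.15, and their summed signal was 4842 to 5556 at pregnancy and 1971 to 2337 at lactation. Epcam, Cdh1 and Cldn7 of the list were not called, with changes of 0.25, 0.38 and 0.25. Against puberty the list was split: 4 of the 8 were called higher at lactation and 3 lower, with a median of 0.51. Of all probe sets, 26.1% were called higher and 21.8% lower in that contrast. When each array was set relative to the mean of these 8 markers, the median of all probe sets moved to 1.08 from pregnancy to lactation and to -1.27 from puberty to pregnancy, and the share of higher among the called probe sets from pregnancy to lactation went from 52.3% to 94.8%. On that scale 7 of 7 synthesis genes were called higher at lactation than at pregnancy, Fdps by 3.46, and 7 of 7 lower at pregnancy than at puberty, to be read against those shifts. Of all 9783 probe sets tested, 5769 were called higher at lactation than at pregnancy on that scale. Between pregnancy and puberty 8519 were called, only 84 of them higher at pregnancy.

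The genes whose log2 values were most like the mean course of the 7 were, among 7084 other genes over the 9 arrays, AU021092 (Pearson r = 0.983), Napb (0.977), Sgk1 (0.974), Itga8 (0.973), Hpx (0.967) and Cmtm7 (0.966). Sgk1, a kinase induced by serum and glucocorticoids, gave 211 to 302 at puberty and pregnancy, 1353 and 2058 at lactation and 439.6 and 294 at involution. Its 2 lactation arrays ordered as those of the synthesis genes did. Cmtm7 gave 203 to 256 outside lactation and 450.3 and 429.7 at lactation. The remaining 4 read at most 26.3 outside lactation and 31.4 to 52.8 at lactation, so their likeness rests on signals close to the floor.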

How the data were processed

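RNA of 9 whole mammary glands was hybridised to Affymetrix MG-U74Av2 arrays, 3 at puberty and 2 at each other stage, with stage and replicate taken from the labels. The authors deposited intensities on a linear scale, 1 per probe set on each array, made with MAS5 by the submitters' processing notes (version not given in the sources used here), and the trimmed mean of the deposited intensities was the same on all arrays (125). The normalization and filters that the methods give for GeneSpring are not in these values. Deposited medians were 48.1 to 53.8 per array, Pearson r of log2 signals was 0.947 to 0.975 within and 0.724 to 0.935 between stages, and on the 2 lactation arrays 9.09% and 7.53% of all signal came from the 10 brightest probe sets. The small number of arrays limits the precision.

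After removal of 66 control probe sets, each array was brought to a common median, signals below 20 were raised to 20 and then put on the log2 scale; printed signals are scaled but have no floor, and stages are compared on the floored log2 scale, which understates changes of dim probe sets. Probe sets with a mean above 20 in at least 1 stage (9783 of 12422) were tested with limma 3.58.1 in R 4.3.3 (lmFit, eBayes with trend; moderated F test over 4 stages and contrasts between stages), all 9 arrays sharing 1 estimate of the spread, with Benjamini-Hochberg adjustment over all tested and a threshold of 0.05, after the methods' analysis of variance at that false discovery rate. Genes came from the platform annotation, with symbols updated through RefSeq's gene table for 10817 of 10833 probe sets with 1 symbol. The 7 genes and all lists were chosen with earlier results of these data known. Of the other lists all measured genes were counted and those called could be named; the 6 genes most alike were those of highest Pearson r. Lists of markers covered luminal and basal epithelium, milk proteins, white and brown adipocytes, skeletal muscle, macrophages, B and T cells, endothelium and fibroblasts. The steps were tested on simulated data. Tables and figures were made in Python 3.11.15 with pandas 2.3.3, numpy 2.4.6 and matplotlib 3.10.9.

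Alternatives were the deposited scale, the 75th percentile, quantile normalization, values relative to luminal markers, a floor of 50 or none, a constant of 16 in place of the floor, a filter of 100 or none, eBayes without trend, robust fitting, the replicate number as a block, a plain analysis of variance, the second brightest probe set, and each array left out in turn. Before averaging, replicates were compared, and no pair held identical values.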

Additional observations from a re-analysis of the deposited data

How the results depend on the processing

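For the 7 genes, the changes of lactation against pregnancy and puberty and of involution against lactation, and that of Nsdhl from puberty to pregnancy, kept their direction under every setting other than leaving out an array. Of these 268 values, 249 kept their side of the threshold, 14 lost it and 5 gained it. The other changes were recomputed as counts alone. Of the 7 genes, the plain analysis of variance passed 3. The count lower at pregnancy than at puberty (1) became 0 with a floor of 50, no filter, no trend, robust fitting or the second brightest probe set, and 7 relative to luminal markers, among them Idi1, Fdps, Sqle and Cyp51, whose changes were above 0 on the usual scale. Relative to luminal markers 8519 of all 9783 probe sets were called there, 84 of them higher. The count lower at involution than at lactation (5) became 3 with a floor of 50 or no filter. Against pregnancy, involution gave 2 calls relative to luminal markers and 1 with robust fitting, and against puberty 1 and 1, where the count was 0. Of all 9783 probe sets, 2303 and 2242 were called against pregnancy in these 2 settings, and 1301 and 2299 against puberty. Of the 11 other enzymes, the F test passed 8 with a floor of 50, 11 relative to luminal markers and 8 with robust fitting, in place of 5. Relative to luminal markers the sign turned for Lss from lactation to involution (-0.21) and, from pregnancy to lactation, for Erg28 (0.85), Srebf1 (0.74) and Apoe (0.10). This setting subtracts 1 value per array from all probe sets alike, so these sign turns come from a shift that all probe sets share. Why the other counts moved was not tested.

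The labels number the replicates alike in each stage, but same-numbered arrays did not deviate together from their stage means (Pearson r -0.153 to 0.049 over 12 pairs), so the numbers share only a name. With the replicate number as a block, 0 of 7 genes were called at pregnancy against puberty, 5 against pregnancy and 5 against puberty at lactation, and 4 at involution against lactation, where Nsdhl lost its call (limma adjusted p = 0.0541). Replicate 3 exists at puberty alone, so the block takes up that array as leaving it out does. Fdft1, the call gained against puberty, changed by 0.96 in both settings.

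Leaving out 1 array at a time gave 3 to 5 of 7 by the F test, 0 to 1 at pregnancy against puberty, 3 to 5 at lactation against pregnancy, 3 to 5 at lactation against puberty, 3 to 5 at involution against lactation, and 0 against pregnancy and against puberty. Of the 11 other enzymes it gave 4 to 6 by the F test, 4 to 6 at lactation and 5 to 7 at involution. Changes that turned sign ranged from -0.56 to 0.36 for Hmgcs1 and -0.43 to 0.31 for Fdft1 from lactation to involution, from -0.0044 to 0.52 for Mvk, -0.092 to 0.69 for Sc5d and -0.32 to 0.0079 for Erg28 from pregnancy to lactation, and from -0.014 to 0.20 for Lss at involution. A stage left with 1 array is assumed to vary like the others. Groups of 2 or 3 glands, and signals near the floor for Cyp51, 1 Fdps probe set and Hsd17b7, limit what these data can show.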

Other observations

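Among the lists of markers not described above, summed signals of 5 basal epithelium genes were 949 to 1206 at puberty, 3067 to 3511 at pregnancy, 1938 to 2237 at lactation and 1805 to 2000.4 at involution. B cell genes (4 measured) summed to 299 to 666 at lactation and 2565 to 2917 at involution, T cell genes (4) to 174 to 252 and 948 to 953, and endothelial genes (5) to 353 to 356 and 506 to 512. From lactation to involution 4 of 4 B cell, 4 of 4 T cell and 3 of 5 endothelial genes were called higher, beside 22.1% of all probe sets. Pecam1, of the endothelial list, went the other way, with 154 and 117 at lactation and 79.3 and 39.3 at involution. Jchain, at 1364 and 1218, made up much of the B cell sum at involution. Brown adipocyte genes (3) summed to 966 to 1757 at puberty and 338 to 515 in the other stages.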
